A study of Mus musculus with 6 samples.

Results

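The 9 genes described here encode ion channels that set the electrical activity of the insulin-secreting beta cell, and they were taken by symbol from the 55060 genes of the expression table. All 9 were found, and all 9 passed the filter on low values that left 21211 genes for testing. They comprise the subunits of the ATP-sensitive potassium (KATP) channel (*Kcnj11* and *Abcc8*), 3 pore subunits of voltage-gated calcium channels (*Cacna1a*, *Cacna1c* and *Cacna1d*), and 4 other excitability channels (*Kcnma1*, *Kcnk16*, *Trpm5* and *Scn9a*).

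In the beta cell, glucose metabolism raises the ratio of ATP to ADP, which closes KATP channels and depolarises the membrane. Voltage-gated calcium channels then open, and the calcium that enters triggers fusion of insulin granules. Calcium-activated, voltage-gated and two-pore potassium channels repolarise the cell or set its resting potential, while TRP and sodium channels carry inward current.

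RNA from islets of C57BL/6 mice was sequenced in 3 Ctrl and 3 cKO samples. The cKO animals carried an Ins2-Cre transgene, in which the insulin promoter drives Cre recombinase, together with floxed alleles of *Parn* (Parn f/f, loxP sites around exon 7). *Parn* encodes a deadenylase, an enzyme that shortens poly(A) tails of RNA. The Ctrl group was made up of Parn f/f mice and other littermates, and the study describes the sequenced cKO islets as from animals 12 weeks old. Which of the Ctrl samples, if any, carried Ins2-Cre was not given in the sources used here, so loss of *Parn* and presence of the transgene cannot be told apart. The sex and the number of animals in each sample were also not given, so p-values measure the spread between these samples, which may be partly technical.

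Levels were FPKM, fragments scaled to gene length in kilobases and to library size, which allows a rough comparison between genes. The length of each channel gene covered the exon bases of all its annotated transcripts. A ratio of FPKM between genes is therefore not a ratio of transcripts. The library sizes that these FPKM were divided by ran from 15731223 to 18085944, and the reads on genes read back from 16289408 to 17944775. These library sizes were below the reads on genes in every Ctrl sample and above them in every cKO sample. They are therefore scaled sizes and not counts of sequenced reads. *Ins2* took 20.2% to 22.7% of the reads on genes in Ctrl and 14.7% to 17.6% in cKO, without overlap. *Parn* was at 6.64, 8.34 and 7.38 FPKM in Ctrl 1, 2 and 3 and at 4.97, 4.61 and 6.15 FPKM in cKO 1, 2 and 3, so the groups did not overlap. A whole-gene value also counts reads outside the deleted exon, and islets hold cells without Cre. Markers of beta, alpha, delta and PP cells were present in every sample. The 10 beta cell markers summed to 235964 to 276386 FPKM in Ctrl and 195405 to 217645 FPKM in cKO, without overlap, and 8 of the 10 had a negative fold change, of which *Ucn3* alone had an unadjusted p under 0.05. *Ins2* and *Iapp* were lower and *G6pc2* was higher in cKO, each without overlap. The limma SE of the log2 fold change was 2.87 for *Ins2* and 0.719 for *Iapp*. Their coefficients of variation within groups were 3.49% to 16.7%, so their p-values did not measure the spread between samples alone. The part of the lower beta cell marker sum in the channel values was not tested. Without *Ins1*, *Ins2* and *Iapp*, the hormone genes that dominate the sum, the groups overlapped. Ctrl 1 stood apart: the summed FPKM of 6 leukocyte markers was 589, against 33.0 to 73.0 in the other 5 samples, and the sum of 7 beta cell markers other than *Ins1*, *Ins2* and *Iapp* was the lowest, at 2214 against 2446 to 2842. Values without Ctrl 1 are therefore given for *Cacna1c*, *Trpm5* and the counts of genes. The range with each sample left out is given for each channel gene.

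None of the 9 channel genes differed between genotypes at an adjusted p under 0.05 (limma on log2(FPKM + 1), Benjamini-Hochberg over 21211 genes). No gene of the table did, so the background at this threshold was 0%, while limma with voom on the reads read back called 2 genes, neither of them one of the 9. At an unadjusted p under 0.05, 1 of the 9, *Scn9a*, was called, against 7.4% of all genes tested. The same 1 of 9 had groups that did not overlap, against 13.1% of all genes tested. The share of members was close to the background by both measures. The median log2 fold change of the 9 genes was −0.10, with 3 genes higher and 6 lower in cKO, beside −0.01 for all genes tested. These counts moved with the scaling, to 1 higher and 8 lower when *Ins1* and *Ins2* were left out of the library sizes (all genes −0.10) and to 4 higher and 5 lower with voom (all genes 0.07). They also rested on single Ctrl samples, with 2 higher and 7 lower (median −0.19) without Ctrl 1 and 6 higher and 3 lower (median 0.02) without Ctrl 3. In bulk islets, fewer cells of a type and less RNA per cell cannot be told apart.

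**Figure D1:**
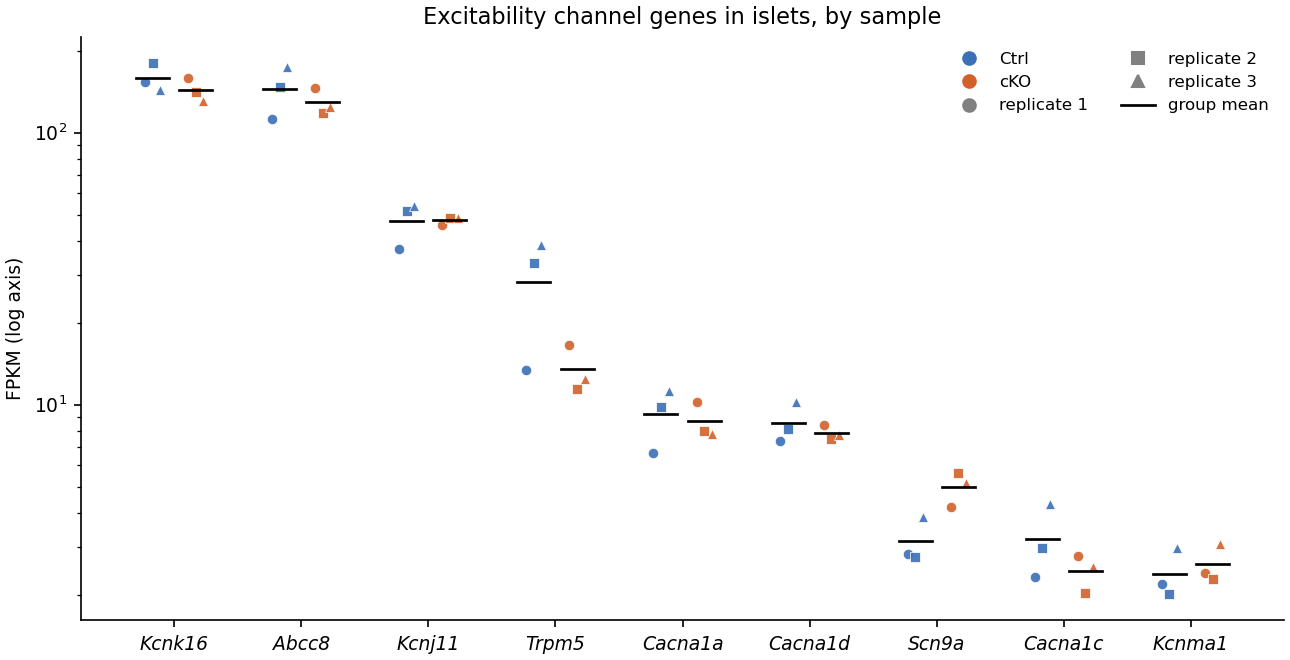
FPKM of the 9 channel genes (log axis) in each Ctrl and cKO sample, with circles, squares and triangles for replicates 1, 2 and 3 and bars for group means. The groups overlap for every gene except *Scn9a*, and the Ctrl samples of *Trpm5* run from 13.4 to 38.5 FPKM.

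The KATP channel assembles from the pore Kir6.2, encoded by *Kcnj11*, and the sulfonylurea receptor SUR1, encoded by *Abcc8*. On GRCm38 they are neighbours on the minus strand of chromosome 7, *Kcnj11* (ENSMUSG00000096146) at chr7:46093953-46100764 and *Abcc8* (ENSMUSG00000040136) at chr7:46104523-46180033, with 3758 bases between them. *Kcnj11* was at 37.3, 51.4 and 54.0 FPKM in Ctrl 1, 2 and 3 and at 45.6, 48.6 and 48.5 FPKM in cKO 1, 2 and 3. The cKO samples lay inside the range of Ctrl, and the means were 47.5 ± 8.97 and 47.6 ± 1.71 FPKM (SD, n = 3 each). The log2 fold change was 0.02 (SE 0.146, 95% interval −0.33 to 0.37, limma adjusted p = 0.988).

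*Abcc8* was at 112, 147 and 174 FPKM in Ctrl and at 147, 118 and 124 FPKM in cKO. Here too the cKO samples lay within the Ctrl range, with Ctrl 1 the lowest and Ctrl 3 the highest of the 6 samples. The group means were 144 ± 31.1 and 130 ± 15.1 FPKM, and the log2 fold change was −0.14 (SE 0.180, 95% interval −0.57 to 0.29, limma adjusted p = 0.892). The receptor subunit exceeded the pore subunit in every sample. Its FPKM divided by that of *Kcnj11* was 3.01, 2.86 and 3.23 in Ctrl and 3.22, 2.42 and 2.56 in cKO, with means of 3.03 ± 0.184 and 2.73 ± 0.423 and overlapping groups. The functional channel holds both subunits in equal number, and the FPKM values were not in that proportion. The lengths used were 8090 bases over 8 transcripts for *Abcc8* and 3677 bases over 5 for *Kcnj11*. The ratio of transcripts itself was not measured. *Kcnj8* and *Abcc9*, the Kir6.1 and SUR2 genes of the vascular and muscle forms of the channel, were much lower. *Kcnj8* was at 0.877, 0.748 and 0.448 FPKM in Ctrl and at 1.03, 1.63 and 1.22 FPKM in cKO, without overlap (log2 fold change 0.44, SE 0.158, limma adjusted p = 0.619). *Abcc9* ranged from 0.516 to 1.24 FPKM over the 6 samples (log2 fold change 0.17, limma adjusted p = 0.854). Summed markers of smooth muscle and pericytes, cells that use this pair, were 23.2 to 34.6 FPKM in Ctrl and 29.3 to 48.0 FPKM in cKO, and those of endothelial cells 122 to 140 and 141 to 174 FPKM. Their part in the *Kcnj8* difference was not tested.

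The calcium channel pore is formed by an alpha 1 subunit. *Cacna1a* encodes the P/Q-type pore, and *Cacna1c* and *Cacna1d* encode the L-type pores Cav1.2 and Cav1.3. *Cacna1a* (ENSMUSG00000034656, chr8:84388440-84640246, plus strand) was at 6.65, 9.79 and 11.2 FPKM in Ctrl and at 10.2, 8.02 and 7.83 FPKM in cKO. The cKO samples lay within the spread of Ctrl (log2 fold change −0.06, SE 0.194, 95% interval −0.52 to 0.41, limma adjusted p = 0.966).

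*Cacna1d* (ENSMUSG00000015968, chr14:30039939-30491455, minus strand) was at 7.37, 8.13 and 10.2 FPKM in Ctrl and at 8.39, 7.45 and 7.74 FPKM in cKO. The 2 groups again overlapped, with Ctrl 1 lowest and Ctrl 3 highest of the 6 samples (log2 fold change −0.10, SE 0.128, 95% interval −0.41 to 0.20, limma adjusted p = 0.889). *Cacna1c* (ENSMUSG00000051331, chr6:118587240-119196418, minus strand) was the lowest of the 3 pores, at 2.32, 2.98 and 4.32 FPKM in Ctrl and at 2.78, 2.03 and 2.54 FPKM in cKO. Its groups overlapped as well, and Ctrl 3 was the highest sample (log2 fold change −0.26, SE 0.196, 95% interval −0.74 to 0.21, limma adjusted p = 0.820). Without Ctrl 1 the log2 fold change of *Cacna1c* was −0.42 (limma adjusted p = 0.475), and without Ctrl 3 it was −0.08 (limma adjusted p = 0.901). With each sample left out it lay between these values. None of the 3 pores differed beyond the spread of the samples, and each interval held changes in both directions.

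The make-up of the calcium pore pool was described over all 10 *Cacna1* genes, whose summed FPKM was 18.9, 23.8 and 29.3 in Ctrl and 24.6, 20.95 and 21.1 in cKO. *Cacna1a* held 35.2%, 41.1% and 38.2% of the sum in Ctrl and 41.5%, 38.3% and 37.0% in cKO. *Cacna1d* held 39.1%, 34.2% and 34.9% in Ctrl and 34.2%, 35.5% and 36.6% in cKO. These 2 pores thus made up most of the pool in both genotypes, with overlapping shares. *Cacna1c* held 12.3% to 14.8% in Ctrl and 9.68% to 12.01% in cKO, and its shares did not overlap. *Cacna1b*, the N-type pore, held 5.17% to 6.67% in Ctrl and 7.50% to 8.37% in cKO, also without overlap. In reads, where length is not divided out, *Cacna1c* held 20.1% to 23.8% in Ctrl and 16.3% to 19.8% in cKO. These shares are descriptions with no test. The FPKM of *Cacna1b* itself overlapped, at 0.974, 1.37 and 1.95 in Ctrl and 1.91, 1.75 and 1.59 in cKO (log2 fold change 0.19, limma adjusted p = 0.822). *Cacna1e*, the R-type pore, was at 0.0357 to 0.0775 FPKM over the 6 samples, below the filter, and *Cacna1s*, the skeletal muscle pore, was listed at 0 in all samples.

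**Figure D2:**
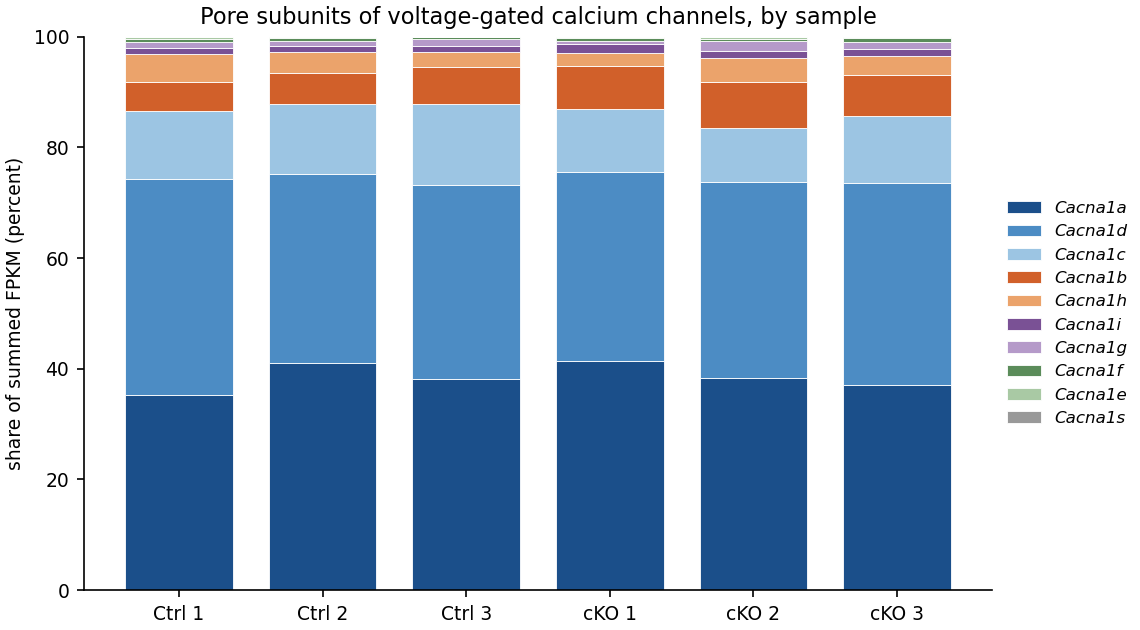
Share of each of the 10 *Cacna1* genes in their summed FPKM (percent), as 1 stacked bar for each of the 3 Ctrl and 3 cKO samples. *Cacna1a* and *Cacna1d* fill most of every bar, and the *Cacna1b* segment is 5.17% to 6.67% in Ctrl and 7.50% to 8.37% in cKO.

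*Kcnk16* (ENSMUSG00000023387, chr14:20261376-20269199, minus strand) encodes TALK-1, a two-pore potassium channel of the islet that carries background current. It was the highest of the 9 genes by mean in both groups, at 153, 180 and 144 FPKM in Ctrl and 159, 141 and 131 FPKM in cKO. The groups overlapped, and the log2 fold change was −0.15 (SE 0.127, 95% interval −0.45 to 0.16, limma adjusted p = 0.821), or −0.22 to −0.05 with each sample left out. *Kcnma1* (ENSMUSG00000063142, chr14:23289431-24014491, minus strand) encodes the pore of the BK channel, a large-conductance potassium channel opened by calcium and voltage. It was at 2.18, 2.02 and 2.97 FPKM in Ctrl and 2.39, 2.28 and 3.08 FPKM in cKO, with the highest value of each group in its sample numbered 3. The log2 fold change was 0.08 (SE 0.154, 95% interval −0.29 to 0.45, limma adjusted p = 0.929).

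The 2 remaining genes, *Trpm5* and *Scn9a*, had the largest differences of the 9, in opposite directions, and their RefSeq start regions on GRCm38.p6 are shown for that reason. Each window runs from 250 bases before to 50 bases after the annotated start and is written 5′ to 3′ on the minus strand, the coding strand of both genes. *Trpm5* lies at chr7:143094593-143094892 and *Scn9a* at chr2:66634913-66635212, and capitals mark a match to a searched motif.
Trpm5: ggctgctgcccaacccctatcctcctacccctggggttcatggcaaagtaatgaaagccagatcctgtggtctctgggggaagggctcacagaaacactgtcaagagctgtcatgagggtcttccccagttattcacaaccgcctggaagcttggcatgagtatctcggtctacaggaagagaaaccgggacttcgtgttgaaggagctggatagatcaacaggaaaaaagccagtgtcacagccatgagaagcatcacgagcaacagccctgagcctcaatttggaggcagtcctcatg
Scn9a: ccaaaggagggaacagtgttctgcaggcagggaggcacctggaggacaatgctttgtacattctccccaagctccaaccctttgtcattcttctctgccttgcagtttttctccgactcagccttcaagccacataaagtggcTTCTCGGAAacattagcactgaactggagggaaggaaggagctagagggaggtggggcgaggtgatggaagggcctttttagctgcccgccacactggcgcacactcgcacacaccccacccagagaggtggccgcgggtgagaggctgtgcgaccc

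Both strands of the windows were searched for 4 motifs. These were the core promoter box TATAAA, the STAT site TTCNNNGAA, the cyclic AMP response element TGACGTCA and the insulin gene E box, with the letters CAGATG. Over 32851 RefSeq promoter windows of this length, 13.6%, 8.30%, 1.79% and 17.2% held them, in that order. The *Scn9a* window held 1 STAT site, TTCTCGGAA, from base 144 of the window, and the *Trpm5* window held none of the 4 motifs. Promoter entries were matched for 6 of the 9 genes, with *Kcnj11*, *Abcc8* and *Cacna1a* unmatched. Of the 9 windows of these 6 genes, 2 held the STAT site (*Cacna1c* and *Scn9a*), 3 the E box (*Cacna1c* and *Kcnk16*), 1 the core promoter box (*Cacna1d*) and 0 the cyclic AMP response element. A match describes letters in a window and says nothing about binding.

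*Trpm5* (ENSMUSG00000009246, chr7:143069153-143094642, minus strand) encodes a cation channel opened by intracellular calcium, which carries depolarising sodium current in beta cells and in taste and tuft cells. It was at 13.4, 33.1 and 38.5 FPKM in Ctrl 1, 2 and 3 and at 16.6, 11.4 and 12.5 FPKM in cKO. Ctrl 2 and Ctrl 3 lay above all cKO samples, while Ctrl 1 lay below cKO 1, so the groups overlapped through 1 sample. The means were 28.3 ± 13.2 and 13.5 ± 2.75 FPKM, a ratio of 0.476 of cKO to Ctrl. The log2 fold change was −0.91 (SE 0.383, 95% interval −1.83 to 0.01), with a limma adjusted p of 0.682, and the interval held zero. Reads were not limiting, at 1270 to 4100 per sample.

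The size of this difference moved with each of the Ctrl samples. Without Ctrl 1 the log2 fold change of *Trpm5* was −1.36 (limma adjusted p = 0.141), without Ctrl 2 it was −0.73 and without Ctrl 3 it was −0.63. With each sample left out in turn it lay between −1.36 and −0.63. The direction was the same in all 6 of these fits, and none passed the adjusted threshold. The 6 tuft cell markers summed to 0.905 to 1.51 FPKM in Ctrl and 2.20 to 3.42 FPKM in cKO. Most of this sum came from *Avil* and *Dclk1*, the 2 markers that passed the filter, with *Pou2f3*, *Gnat3* and *Il25* at or near 0, and the part of tuft cells in the *Trpm5* difference was not tested. In the GENCODE M21 annotation *Tssc4*, on the other strand, shares 220 exon bases with *Trpm5*, 3.44% of its exon length. *Tssc4* was above *Trpm5* in every sample, at 61.2 to 73.8 FPKM in Ctrl and 65.4 to 75.9 FPKM in cKO, with overlap. Whether the counting used strand was not given in the sources used here.

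*Scn9a* (ENSMUSG00000075316, chr2:66480080-66634962, minus strand) encodes Nav1.7, a voltage-gated sodium channel known from sensory and autonomic neurons and also present in islet cells. It was at 2.83, 2.76 and 3.85 FPKM in Ctrl and at 4.19, 5.60 and 5.16 FPKM in cKO. Every cKO sample lay above every Ctrl sample. The means were 3.15 ± 0.613 and 4.98 ± 0.722 FPKM, a ratio of 1.58. The log2 fold change was 0.53 (SE 0.150, 95% interval 0.17 to 0.89). The limma p was 0.0108 unadjusted and 0.518 adjusted, so the difference did not pass over all genes tested. It was higher in cKO in all 6 fits that left out a sample, with log2 fold changes of 0.46 to 0.65. As the groups did not overlap, leaving out a sample could not have turned this direction.

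Several markers of neurons were higher in the same samples as *Scn9a*. The 6 markers summed to 41.7 to 58.7 FPKM in Ctrl and 57.6 to 71.0 FPKM in cKO, with overlap and with no marker at 0, and *Uchl1*, *Prph* and *Nefm* were higher in cKO at an unadjusted p under 0.05. *Prph*, a filament protein of peripheral neurons, was at 3.73, 3.59 and 5.11 FPKM in Ctrl and 8.14, 14.2 and 8.85 FPKM in cKO. Schwann cell markers summed to 5.004 to 9.17 and 7.36 to 10.1 FPKM. Alpha cell markers summed to 11081 to 16353 and 8758 to 16320 FPKM, with overlap. The part of these cells in the *Scn9a* difference was not tested.

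**Figure D3:**
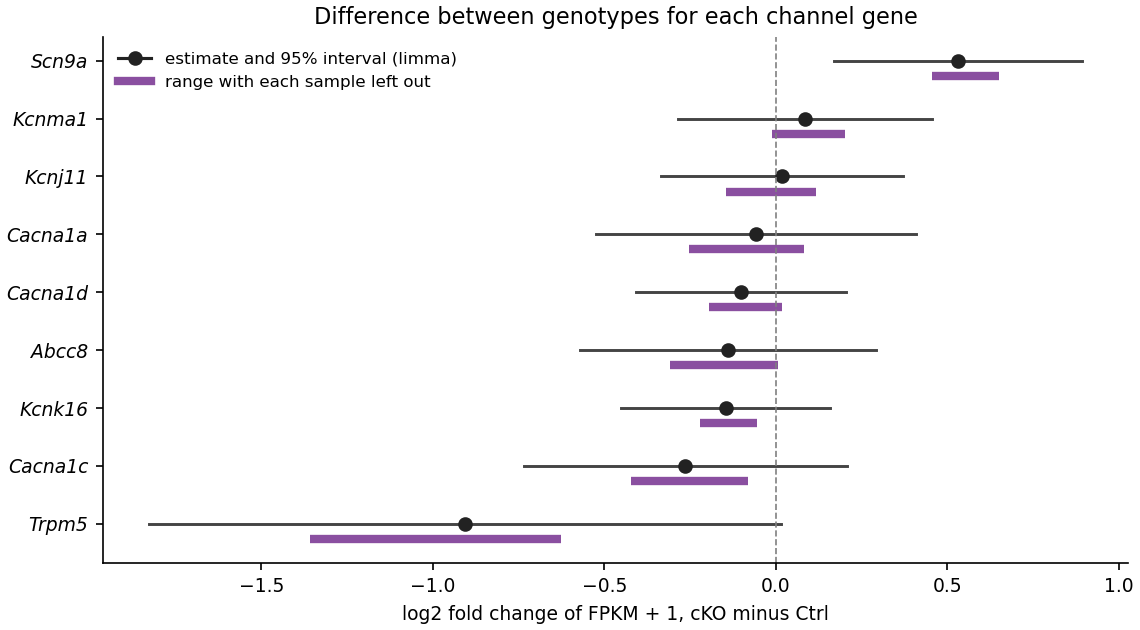
Log2 fold change of FPKM + 1 (cKO minus Ctrl) for each of the 9 channel genes, as points with 95% intervals from limma, and the range over fits that left out 1 sample each as thick bars. Only the interval of *Scn9a* lies clear of zero, and the thick bars of *Kcnj11*, *Abcc8*, *Cacna1a*, *Cacna1d* and *Kcnma1* cross zero.

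The order of levels differed little between genotypes. In Ctrl the means ran *Kcnk16*, *Abcc8*, *Kcnj11*, *Trpm5*, *Cacna1a*, *Cacna1d*, *Cacna1c*, *Scn9a* and *Kcnma1* from high to low. Neighbours that did not overlap were *Abcc8* above *Kcnj11* (ratio of means 3.04), *Trpm5* above *Cacna1a* (3.08) and *Cacna1d* above *Cacna1c* (2.68). The other 5 neighbouring pairs overlapped. In cKO the same first 6 genes led, followed by *Scn9a*, *Kcnma1* and *Cacna1c*. There *Trpm5* no longer overlapped *Kcnj11* (ratio of *Kcnj11* to *Trpm5* 3.52, against 1.68 with overlap in Ctrl), and *Scn9a* stood apart from both of its neighbours. Among all 21211 genes tested, *Kcnk16* ranked 168 and *Abcc8* 191 by mean FPKM, *Kcnj11* 686 and *Trpm5* 1791, and *Kcnma1*, the lowest of the 9, ranked 9941.

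By coefficient of variation, the Ctrl samples were more spread than the cKO samples for all 9 genes. The share of all genes tested with this order was not counted. By SD, *Scn9a* went the other way, at 0.613 FPKM in Ctrl and 0.722 FPKM in cKO. Related genes went both ways, with 14.4% in Ctrl and 20.4% in cKO for *Kcnh6* and 9.67% and 4.76% for *Cacnb3*. The coefficient of variation in Ctrl ran from 11.9% for *Kcnk16* to 46.7% for *Trpm5*, and in cKO from 3.61% for *Kcnj11* to 20.4% for *Trpm5*. Ctrl 1 was the lowest of the 6 samples for *Kcnj11*, *Abcc8*, *Cacna1a* and *Cacna1d*. Whether the spread differed between groups was not tested.

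Over the 6 samples, the calcium pores, *Abcc8* and *Trpm5* varied together. Pearson's r of log2(FPKM + 1) was 0.967 between *Cacna1c* and *Cacna1d*, 0.962 between *Abcc8* and *Cacna1a* and 0.706 between *Kcnj11* and *Abcc8*. For *Trpm5* it was 0.788 to 0.889 with *Abcc8* and the 3 pores. Ctrl 3 was the highest sample for all 6 of these genes. Ctrl 1 was the lowest for all of them except *Cacna1c* and *Trpm5*, where cKO 2 was lowest. *Kcnk16* ran the other way from *Kcnma1* (r = −0.782) and *Scn9a* (r = −0.774). Among 6816 other genes with a mean of at least 5 FPKM, the pattern most like that of *Cacna1d* belonged to *Cacna2d1* (r = 0.998), which encodes an accessory calcium channel subunit, and next to *Ube2h* (0.996). For *Cacna1a* these were *Pisd-ps1* (0.989) and *Slc38a7* (0.987), and for *Cacna1c* they were *Jup* (0.991) and *Rragd* (0.989). For *Abcc8* they were *2900026A02Rik* (0.996) and *Phactr1* (0.995), and for *Kcnj11* they were *Mras* (0.996) and *Gm30648* (0.991). *Trpm5* was most like *Asns*, the asparagine synthetase gene (0.995), and *Grk5*, a receptor kinase gene (0.991). *Scn9a* was most like *Pkd2*, the polycystin 2 cation channel gene (0.991), and *Slc7a8*, an amino acid transporter gene (0.980). *Kcnk16* was nearest to *Gpsm1* (0.996) and *Slc35c1* (0.992), and *Kcnma1* to *Map3k7* (0.975) and *Mbp* (0.962). With so many genes compared over 6 samples that share libraries and group differences, these values are descriptions only.

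Beyond the 9 genes, 144 related channel and calcium-handling genes were counted in 9 lists, of which 100 passed the filter. None passed the adjusted threshold. At an unadjusted p under 0.05, 8 were higher and 3 lower in cKO, 11% of those tested against 7.4% of all genes. Groups did not overlap for 17 of the 100, against 13.1% of all genes. The median log2 fold change was 0.04, with 62 genes higher and 38 lower, and these counts became 49 and 51 with *Ins1* and *Ins2* left out of the scaling and 74 and 26 with voom. The 5 other calcium pores tested (median 0.02) and 11 auxiliary calcium channel subunits (median 0.04) had no gene at an unadjusted p under 0.05. *Cacnb3*, a cytoplasmic beta subunit, was at 14.3 to 17.4 FPKM in Ctrl and 16.1 to 17.6 FPKM in cKO. *Cacna2d1* was at 6.04 to 9.74 FPKM in Ctrl and 6.22 to 7.25 FPKM in cKO.

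**Figure D4:**
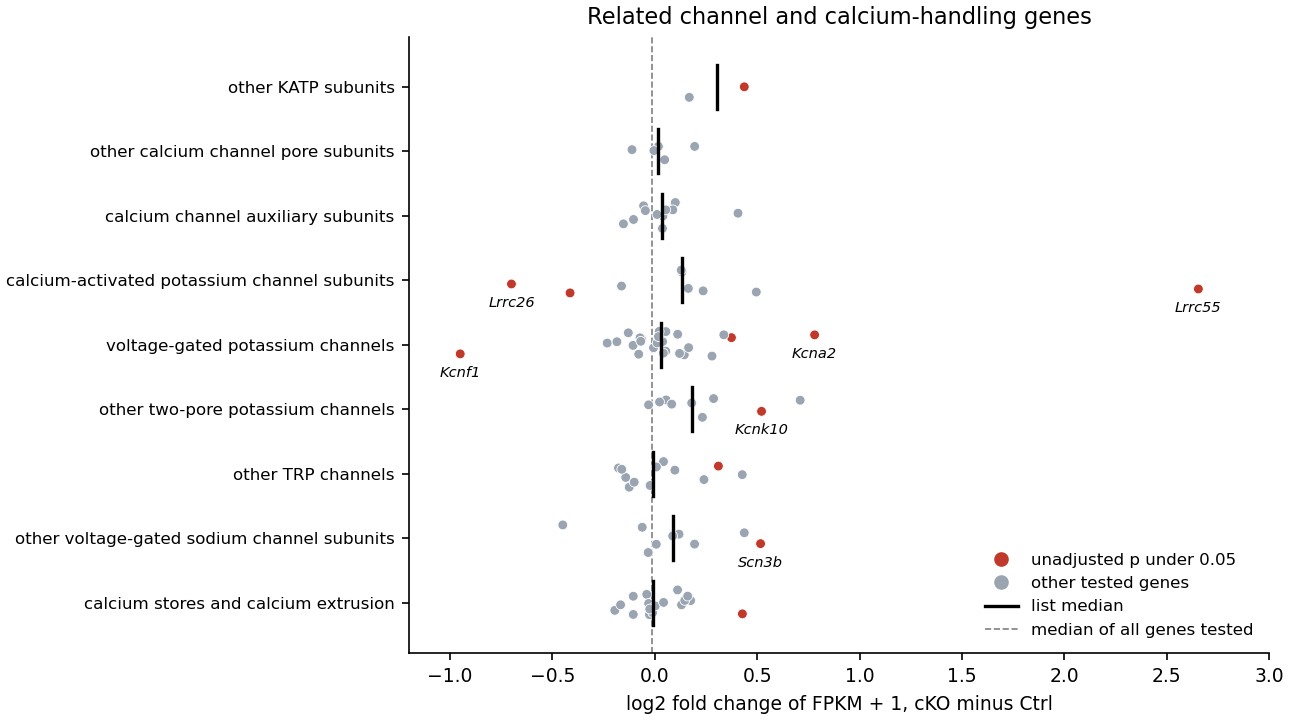
Log2 fold change of FPKM + 1 (cKO minus Ctrl) for each of the 100 tested related genes, 1 row per list, with a bar at each list median and a dashed line at the median of all genes. Red points have an unadjusted limma p under 0.05, and the points farthest from zero are *Lrrc55* at 2.66 and *Kcnf1* at −0.95.

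The list that holds the partners of *Kcnma1* had the widest spread. Of 9 tested calcium-activated potassium channel subunits, 1 was higher and 2 were lower in cKO at an unadjusted p under 0.05. That was 33.3% of this small list, against 7.4% of all genes tested. Groups did not overlap for 4 of the 9, or 44.4%, against 13.1% of all genes tested. *Kcnmb2*, the BK beta 2 subunit, which inactivates the channel, was at 30.5, 39.5 and 38.3 FPKM in Ctrl and 23.8, 29.7 and 26.8 FPKM in cKO. Each cKO sample was below each Ctrl sample (log2 fold change −0.41, SE 0.131, limma adjusted p = 0.550), and in both genotypes this gene stood far above the pore gene itself. *Lrrc55*, which encodes a BK gamma subunit that lets the channel open at lower voltage, was at 2.08, 1.95 and 0.074 FPKM in Ctrl and 12.1, 14.3 and 11.1 FPKM in cKO. These values came from 148, 125 and 5 reads against 870, 1015 and 820 reads. The groups were far apart (log2 fold change 2.66, SE 0.406), yet the limma adjusted p was 0.274. *Gm13713* and *Gm13716*, annotated on the other strand, share 210 and 266 exon bases with *Lrrc55* in GENCODE M21 and had the same pattern. The *Lrrc55* length in the deposited table, 4080 bases, differs from the 6474 exon bases of M21, so the gene model counted was another one and these overlaps may not apply to it. *Gm13716* was at 5.75, 4.17 and 0.149 FPKM in Ctrl and 24.0, 25.9 and 20.7 FPKM in cKO. Since use of strand in the counting was not given, reads of these genes that overlap cannot be told apart. The other gamma subunits were chosen after their values were seen, and they lay on both sides of zero. *Lrrc26* was at 0.819, 1.87 and 1.21 FPKM in Ctrl and 0.574, 0.290 and 0.325 FPKM in cKO (log2 fold change −0.70, limma adjusted p = 0.509), and *Lrrc52* was listed at 0 in all samples. *Lrrc38* was at 0.838, 0.875 and 0.155 FPKM in Ctrl and 1.05, 1.04 and 1.67 FPKM in cKO (log2 fold change 0.50).

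**Figure D5:**
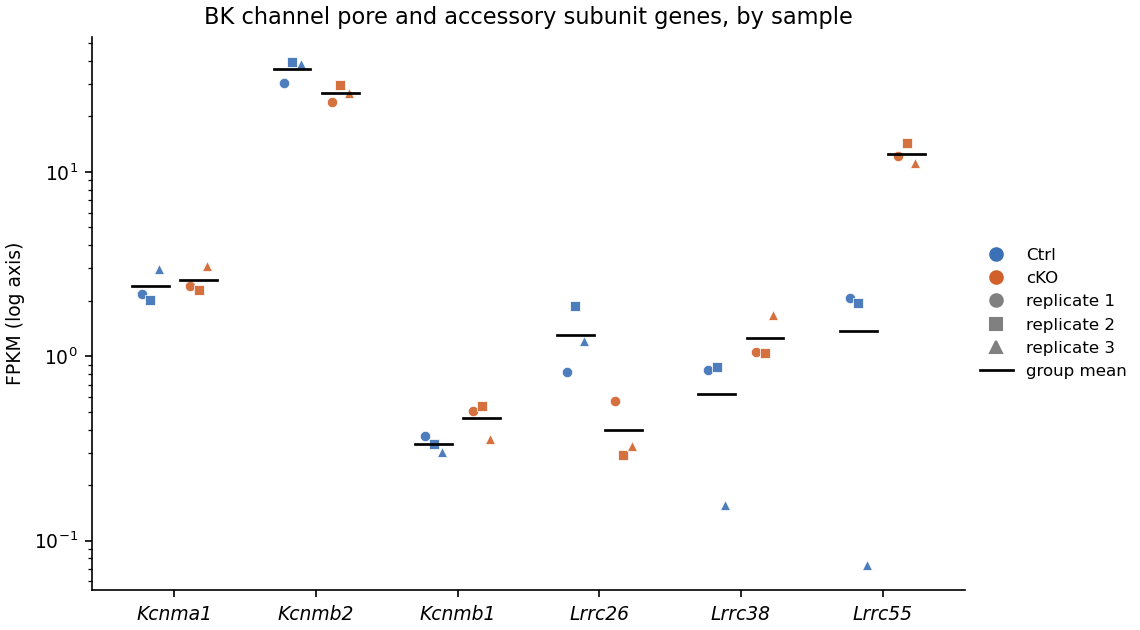
FPKM (log axis) of the BK pore gene *Kcnma1* and 5 genes for its beta and gamma subunits in each Ctrl and cKO sample, with bars for group means. *Kcnma1* overlaps between groups, while *Kcnmb2* and *Lrrc26* are lower and *Lrrc55* and *Lrrc38* higher in every cKO sample.

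Among 26 tested voltage-gated potassium channels, 2 were higher and 1 lower in cKO at an unadjusted p under 0.05. That was 11.5% of the list, against 7.4% of all genes tested. *Kcnf1*, a silent subunit that modifies Kv2 channels, was at 2.69, 2.15 and 2.85 FPKM in Ctrl and 0.987, 0.456 and 1.14 FPKM in cKO, without overlap (log2 fold change −0.95, SE 0.181, limma adjusted p = 0.379). *Kcna2*, a delayed rectifier, was at 1.06, 0.667 and 0.596 FPKM in Ctrl and 1.89, 1.77 and 2.46 FPKM in cKO, also without overlap (log2 fold change 0.78, SE 0.155, limma adjusted p = 0.379). *Kcnq1* was at 0.798 to 1.09 FPKM in Ctrl and 1.32 to 1.77 FPKM in cKO. The most abundant members of this list, *Kcnh6* and *Kcnh2* of the ERG family, had overlapping groups, with log2 fold changes of −0.19 and −0.08. Of 9 other two-pore potassium channels tested, 8 had a positive fold change (median 0.18), against 6 with *Ins1* and *Ins2* left out of the scaling and 9 with voom. *Kcnk1* (TWIK-1) was at 12.2, 12.2 and 10.7 FPKM in Ctrl and 13.1, 14.0 and 13.0 FPKM in cKO, without overlap (log2 fold change 0.18, limma adjusted p = 0.707). *Kcnk16*, with its negative fold change, was thus on the other side from most of its family, although no value here passed the adjusted threshold.

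The relatives of *Trpm5* and *Scn9a* were read beside them. Of 12 other TRP channels tested, 6 were higher and 6 lower (median −0.01). *Trpm4*, the nearest relative of *Trpm5* and likewise opened by calcium, was at 1.58, 2.16 and 1.83 FPKM in Ctrl and 1.48, 1.61 and 1.75 FPKM in cKO, far below it. *Trpm3* was at 1.31, 1.41 and 1.68 FPKM in Ctrl and 2.02, 2.26 and 1.89 FPKM in cKO (log2 fold change 0.31, limma adjusted p = 0.641). *Trpm7* was at 3.03 to 3.54 FPKM in Ctrl and 2.60 to 2.99 FPKM in cKO, without overlap (log2 fold change −0.18). Among 9 other sodium channel subunits tested, *Scn3b*, an accessory beta subunit, was on the same side as *Scn9a*, at 1.29, 1.43 and 1.78 FPKM in Ctrl and 2.97, 2.79 and 2.02 FPKM in cKO (log2 fold change 0.52, SE 0.152, limma adjusted p = 0.545). Of these 9 subunits, 6 had a positive and 3 a negative fold change, and 5 and 4 with *Ins1* and *Ins2* left out of the scaling. Other genes named for their level, *Cacna1h* (a T-type calcium pore), *Kcnk12* (a two-pore channel), *Trpc1* (a TRP channel) and *Nalcn* (a sodium leak channel), had log2 fold changes of −0.11, 0.02, −0.14 and 0.09.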

How the data were processed

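Islet RNA of 3 Ctrl and 3 cKO samples was extracted with TRIzol and made into libraries with a SMARTER mRNA-Seq kit. The authors deposited a table of FPKM per gene on GRCm38 (mm10). The aligner, counter, annotation release and use of strand were not given in the sources used here. Multiplied by gene length, the FPKM gave whole reads (tolerance 0.01) with median-ratio factors alike in all samples, so they were already scaled between libraries. Genes averaging 0.1 FPKM or more were tested with limma 3.58.1 (R 4.3.3, trend, two-sided) on log2(FPKM + 1), which understates changes of low genes, with Benjamini-Hochberg adjustment over 21211 genes and a threshold of 0.05. The study's count model was replaced because the values are FPKM. Simulated data with known changes were used to test the fit. Members, gene lists and tests were chosen with earlier results of these data known. Named related genes were the 2 most abundant of each list and up to 3 with the largest change at an unadjusted p under 0.05, no overlap and a mean of at least 1 FPKM, and likeness named 2 genes per member. Some genes that these rules pick are not reported here. Alternatives were another pseudocount, filter or scaling, voom on reads read back, a replicate block and each sample left out. Python 3.11.15, pandas 2.3.3 and matplotlib 3.10.9 were used for tables and plots.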

Additional observations from a re-analysis of the deposited data

How the results depend on the processing

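With no adjusted call among the channel genes, limits concern directions and unadjusted counts. *Scn9a* was higher in cKO and *Trpm5* lower in all 14 alternatives (log2 fold changes 0.46 to 0.76 and −1.36 to −0.63, limma adjusted p of 0.224 to 0.906 and 0.141 to 0.938), with an unadjusted p under 0.05 in 14 and 4 of them. Another filter, a fit without trend and the replicate block cannot move a fold change. The median-ratio factor was 1.0037 in every sample. In these alternatives the same direction was fixed in advance. Over all genes, 919 were higher and 651 lower at an unadjusted p under 0.05. Scaling without *Ins1* and *Ins2* turned this to 553 and 1560, moved the median of all genes to −0.10, left 5 of the related channel genes higher in place of 8, and gave *Kcnj11* −0.10 and *Kcnma1* −0.0024. voom on the reads gave 1500 and 328, 15 related genes higher, 2 adjusted calls (*Chgb* and *Ehhadh*) and 0.025 for *Cacna1a*. Part of these shifts is built into the settings. Leaving out *Ins1* and *Ins2* multiplied Ctrl values by 1.36 to 1.45 and cKO values by 1.27 to 1.32. The voom fit scaled to the sum of the reads and so dropped the scaling of the deposited FPKM. What else moved these counts was not tested. With each sample left out, 709 to 1251 genes were higher and 402 to 1173 lower, 5 to 10 related genes were higher and 2 to 6 lower, and 0 to 1 genes passed adjustment (*Phlda3*, without Ctrl 1). Without Ctrl 1, 1173 genes and 6 related genes were lower. Without cKO 3, 402 genes were lower, and 5 related genes were higher without cKO 3 or Ctrl 2. With each sample left out, *Kcnj11* ranged from −0.14 to 0.12, *Abcc8* from −0.31 to 0.0058 and *Cacna1a* from −0.25 to 0.083. *Cacna1d* ranged from −0.19 to 0.018 and *Kcnma1* from −0.013 to 0.20. For all of these but *Kcnma1*, the lowest value was without Ctrl 1 and the highest without Ctrl 3. The ratio of *Abcc8* to *Kcnj11* in reads was 6.67 in Ctrl and 6.02 in cKO, as gene length is not divided out.

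Same-numbered samples did not deviate together (r = −0.171, −0.0219 and −0.0652), so the numbers give no pairing. A fit with the replicate block gave 737 genes higher and 538 lower at an unadjusted p under 0.05 and 0 at an adjusted p under 0.05.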

Other observations

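Calcium stores and extrusion were measured in 17 tested genes, of which 8 were higher and 9 lower in cKO (median log2 fold change −0.01). The endoplasmic reticulum calcium pumps *Atp2a3* and *Atp2a2* reached levels like those of the KATP receptor gene *Abcc8*, at 152, 207 and 218 FPKM and 149, 184 and 263 FPKM in Ctrl and at 227, 148 and 188 FPKM and 175, 155 and 176 FPKM in cKO. Both overlapped between groups (log2 fold changes −0.04 and −0.20, limma adjusted p = 0.979 and 0.861). *Orai2*, a store-operated calcium channel, was at 4.32, 2.91 and 3.79 FPKM in Ctrl and 5.67, 4.38 and 5.75 FPKM in cKO (log2 fold change 0.43, limma adjusted p = 0.623). The ryanodine receptor gene *Ryr2* was below the filter, at 0.00662 to 0.0230 FPKM.

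*Kcnk10*, which encodes the two-pore channel TREK-2 and was picked out after its values were seen, was low in every sample, at 0.150, 0.0725 and 0.0206 FPKM in Ctrl and 0.538, 0.642 and 0.473 FPKM in cKO. These came from 23, 10 and 3 reads against 83, 98 and 75 reads, and the limma adjusted p was 0.379.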
